A study of Rattus norvegicus with 23 samples.

Results

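Cytosolic ribosomal protein genes were followed in microglia of neonatal rats across inflammation, hypoxia-ischemia (HI) and their combination. The genes were taken by symbol: Rpl or Rps followed by a number, with an a, x, y or l and a further number where present, together with Rplp0, Rplp1, Rplp2 and Rpsa. Of the 20301 genes in the deposited table, 86 met this rule, 37 of the small subunit and 49 of the large subunit. None of them had the same values as another row. S6 kinases, mitochondrial ribosomal proteins and 60 rows whose symbols carry the -ps suffix of copies lay outside the rule.

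The data were RNA-seq values of cells bound by CD11b/c magnetic beads, isolated 24 h after the operation from Wistar rat pups operated at postnatal day 7, with 23 samples in 4 groups. The 6 Sham samples came from pups with a neck incision under isoflurane, for which no injection is listed. The 5 LPS samples came from pups that received lipopolysaccharide, a bacterial cell wall component, at 0.1 mg/kg intraperitoneally 4 h before the same sham surgery. The 6 NaCl/HI samples came from pups given saline, whose left common carotid artery was ligated before they breathed 8% oxygen for 50 min. The 6 LPS/HI samples came from pups given the same LPS dose and then the same ligation and hypoxia. Each Sham and each LPS sample was the whole brain of 1 pup, while each NaCl/HI and each LPS/HI sample pooled the ligated hemispheres of 2 pups. Wherever NaCl/HI or LPS/HI is set against Sham or LPS, the insult, the tissue taken and the pooling cannot be told apart. Wherever a group is set against Sham, the injection itself cannot be told apart from the treatment either.

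Ribosomal proteins bind the ribosomal RNAs to form the small subunit, which reads the mRNA, and the large subunit, which joins amino acids. Their mRNAs are among the most abundant in most cells, and many begin with a run of pyrimidines (the 5′ terminal oligopyrimidine tract) through which mTORC1 signalling acts on their translation. The levels given here are of mRNA, not of protein or of translation.

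Sequences around the annotated start sites are shown because the pyrimidine run is what many of these genes share at the DNA level. RefSeq promoters of the rat build GRCr8 held 65 entries for 64 of the 86 members, and each window runs from 20 bases before to 10 bases after the start, 5′ to 3′ on the strand of the gene. Capitals mark a run of 6 or more C or T that includes the start base. The reads were quantified on another build, mRatBN7.2, so these coordinates do not apply to the deposited table. The windows are Rps2 at chr10:14251828-14251857 (plus strand), Rpl10a at chr20:6390513-6390542 (plus), Rps21 at chr3:187724018-187724047 (plus), Rpl14 at chr8:129163600-129163629 (plus), Rplp0 at chr12:46718381-46718410 (minus) and Rplp1 at chr8:71290863-71290892 (minus). The next 3 windows, Rpsa at chr8:128728859-128728888 (plus), Rplp2 at chr1:205975901-205975930 (plus) and Rps27l at chr8:76443638-76443667 (plus), hold no such run over the start base. The last 2 are Rpl22 at chr5:168117941-168117970 (plus) and its paralog Rpl22l1 at chr2:113683176-113683205 (plus).
Rps2: gCCTCCCTCTTCTTTTTCTTCgggaaaaca
Rpl10a: tgcgcgaaaccttctgCCTTCTTTTCCggt
Rps21: tggaagaacgagccaCTTCCTTTCTgtgtt
Rpl14: cggcagggcgggCCCTCTCCCTTCTCgctg
Rplp0: ctggtgaccgcaccgcaCTTCTCTCgccag
Rplp1: tgcgcgcaggcgcatgtgaTCCTTTCCTCa
Rpsa: cccgtcctttccgcgctaccctggaacggg
Rplp2: atcttcctttcgccgccggacgccgccgag
Rps27l: ttatagtttattcatttgtcattatttgtg
Rpl22: cctgcgtagtgcgCCCCCCTCCCTTTCTgc
Rpl22l1: tgagcgctccgtggatatccggttccgagt

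A run of this kind covered the start base in 34 of the 65 member entries (52.3%), against 8.26% of all 33469 RefSeq promoters. It was 20 bases long in Rps2, 14 in Rpl14, 11 in Rpl10a and 8 in Rplp0. Among promoters of mitochondrial ribosomal proteins the share was 10.8%, and among those of ribosomal protein paralogs 1 of 5 entries had it. The letters CCGGAAG on either strand, the core bound by ETS factors, were in 26.2% of the member entries and in 8.75% of all entries, each of which runs from 250 bases before to 50 after the start. This core was in 32.3% of promoters of mitochondrial ribosomal proteins and in 34.3% of those of translation initiation factors. It was thus not particular to the members. On the other strand this core reads CTTCCGG, so it can overlap the end of a pyrimidine run.

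Values are log2 values after the rlog transformation, which draws weakly expressed genes toward their mean, and are not per length, so levels are compared between groups and not between genes. A member was called where the adjusted p of limma over all 20301 genes was under 0.05, with no threshold on the fold change. Depth per sample is unknown. Of the 86 members, 77 had a mean above the 25% of genes with the lowest means, which end at 4.14. The 9 below it included Rpl30, Rpl30l1, Rpl39l, Rpl3l, Rps12l2, Rps12l3, Rps12l4 and Rps19l1. Reads of nearly identical copies can be divided among rows, so values of single rows such as Rpl30, Rpl30l2, Rpl37, Rpl37l1, Rps27a, Rps18l1, Rpl31l4 and Rps10l1 are uncertain. Rpl30 lay between 2.15 and 2.72, and Rpl30l2 between 11.51 and 12.05.

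The microglia markers Csf1r (16.3 to 16.64) and Cx3cr1 (15.38 to 15.7) were high in all 23 libraries. Siglech, also on that list, stayed between -1.09 and -1. Transcripts of other cells were present too, such as Gfap of astrocytes (10.05 to 12.19), Vwf of endothelium (12.63 to 13.29) and Hba-a1 of erythroid cells (9.47 to 12.4). In a bulk sample, a different share of a cell type and a different amount of RNA per cell cannot be told apart.

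Within each group the ribosomal protein genes moved together from library to library. Over the 77 members above this limit, the mean log2 value was lowest in Sham 6 (12.08) within Sham, where 69 of the 77 members had their lowest value. In LPS/HI 5 the mean was 12.5, and 74 of the 77 members had the highest value of the LPS/HI group there. LPS 5 (12.24) held the lowest value of the LPS group for 67 members, and LPS/HI 1 (12.17) that of the LPS/HI group for 63. Within NaCl/HI the lowest values fell to NaCl/HI 2 for 37 members and to NaCl/HI 4 for 38. Most members thus had their extreme values in a few libraries that they shared.

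After group means were subtracted, pairs of these 77 members had a median correlation of 0.818 over the 23 libraries, with an interquartile range from 0.657 to 0.898. The first component held 71.3% of their variance. In related lists the median correlation was 0.617 for mitochondrial ribosomal proteins, 0.505 for ribosome assembly factors and 0.463 for translation initiation factors. The first components of these 3 lists held 63%, 55.2% and 55.8%, so moving together was not particular to the members. These are descriptions, since the points share libraries and the deposited values had already been corrected for 3 variables. The 9 members among the lowest 25% of genes had a median correlation of 0.096. Among the other 77, Rps16 (0.112 with the mean of the other members) and Rpl37 (0.248) followed the rest least. The SD within a group had a median over the 77 members of 0.072 in Sham, 0.084 in LPS, 0.126 in NaCl/HI and 0.121 in LPS/HI, so the libraries of the HI groups were spread more widely.

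**Figure D1:**
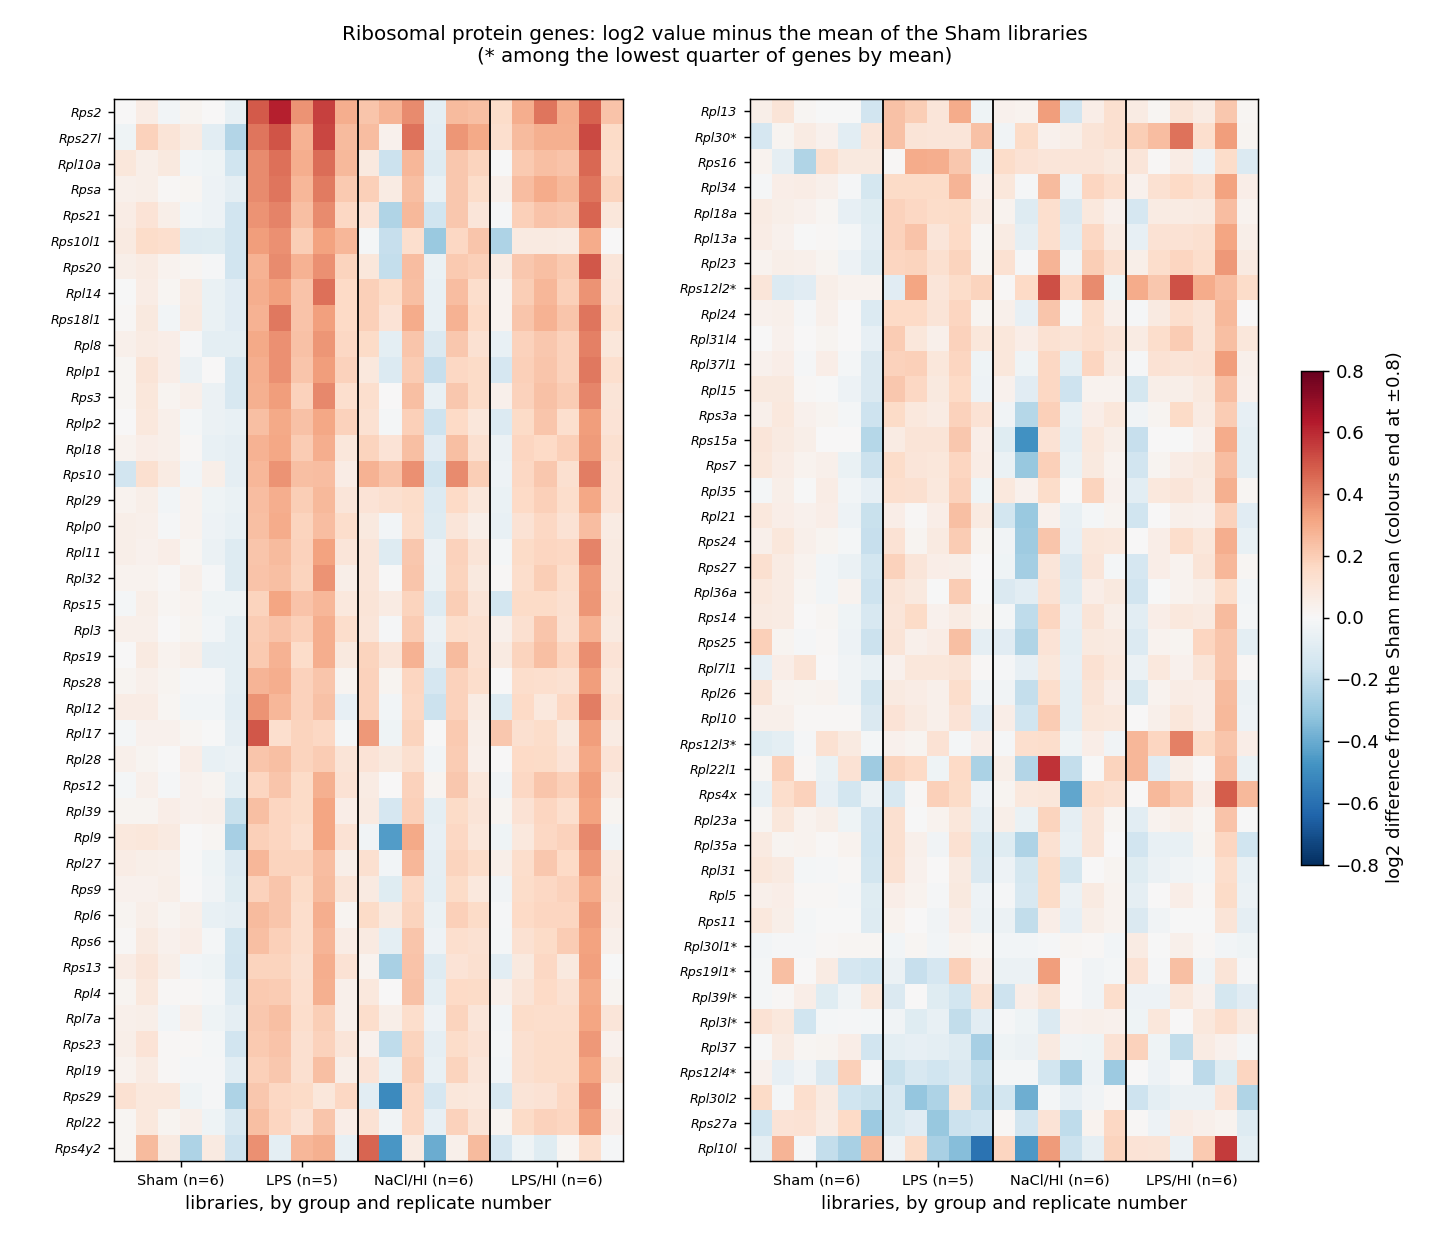
Each row is 1 of 83 members and each column 1 library, grouped as Sham, LPS, NaCl/HI and LPS/HI. Colour gives the log2 value minus the Sham mean (red above, blue below, ends at ±0.8), rows are ordered by the difference between LPS and Sham, and asterisks mark 8 members among the lowest 25% of genes. The LPS columns are red over most rows, and within LPS/HI the column of library 5 is the reddest.

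The first comparison set LPS alone against Sham, for which no injection is listed. Of the 86 members, 32 were higher in LPS than in Sham and 0 were lower, against 10.2% of all genes called higher and 7.56% called lower. That is 37.2% of the members. The median difference of the members was 0.16, with a range from -0.22 to 0.46, while the median of all genes was -0.01. The difference was above 0 in 78 members, against 44.3% of all genes, and 52 had an unadjusted p under 0.05, against 32% of all genes in either direction. The changes were small throughout, the largest being 1.38-fold. All 5 LPS values lay above all 6 Sham values in 29 members, against 8.05% of all genes. The reverse held for 1 member, Rps12l4 (named after its values were seen), against 5.83% of all genes.

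Rps2, a protein of the mRNA entry channel of the small subunit, differed most. Its Sham values ran from 13.83 through a median of 13.89 to 13.95, and its LPS values were 14.38, 14.51, 14.25, 14.44 and 14.18. All LPS libraries were above all Sham libraries. The difference was 0.46 (SE 0.075, 95% interval 0.31 to 0.62, limma adjusted p 0.000205). Rps3, which lines the same channel, was higher by 0.26 (limma adjusted p 0.00861). Of the 8 measured members of the channel and decoding region, 6 were called higher, Rps9, Rps15 and Rps28 among them. Rps14 (0.08) and Rps23 (0.17) did not pass.

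Rpsa, a small subunit protein also known as the laminin receptor, ranged in Sham from 13.97 through a median of 14.06 to 14.09. Its LPS values were 14.42, 14.47, 14.31, 14.46 and 14.25, again above every Sham library. The difference was 0.34 (SE 0.066, limma adjusted p 0.00109). Rps21, a small subunit protein that lies next to Rpsa, had Sham values from 11.41 through 11.58 to 11.67 and LPS values of 11.92, 11.96, 11.8, 11.94 and 11.73. The groups did not overlap, and the difference was 0.31 (SE 0.089, limma adjusted p 0.0211).

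In the large subunit, Rpl10a, which forms the L1 stalk at the exit of the tRNA, had Sham values from 12.4 through 12.57 to 12.65. Its LPS values were 12.94, 13, 12.85, 13.01 and 12.82. The LPS libraries were all above the Sham libraries, and the difference was 0.36 (SE 0.082, limma adjusted p 0.0038). The P stalk, which recruits the GTPases of translation, rose in 3 of its 4 genes, with a median difference of 0.24. Rplp0 had Sham values from 14.5 through 14.57 to 14.61 and LPS values of 14.8, 14.86, 14.74, 14.81 and 14.7, with no overlap and a difference of 0.22 (limma adjusted p 0.00973). Rplp1 and Rplp2 were higher by 0.28 and 0.25 (limma adjusted p 0.0222 and 0.0121). Rpl12, the protein at the base of the stalk, differed by 0.20 and did not pass (limma adjusted p 0.0985).

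Rpl3 and Rpl8, which lie by the peptidyl transferase centre where peptide bonds are made, were higher by 0.21 and 0.28 (limma adjusted p 0.00983 and 0.0103). Rpl14, with a run of 14 pyrimidines at its start, was higher by 0.29 (limma adjusted p 0.00337). Other called members included Rpl6, Rpl7a, Rpl18, Rpl27, Rpl28, Rpl29, Rpl32, Rps12 and the near copies Rps10l1, Rps18l1 and Rpl31l4, with differences from 0.12 for Rpl31l4 to 0.30 for Rps10l1.

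Rps27l, a paralog of Rps27 known as a target of p53, was higher by 0.40 (SE 0.095, limma adjusted p 0.00591). Its Sham values ran from 8.69 through 8.94 to 9.11, and the LPS values were 9.35, 9.43, 9.2, 9.46 and 9.18, all above Sham. Rps27 itself differed by 0.08 (limma adjusted p 0.461). Of the 7 paralogs measured, Rps27l was the 1 that passed, and the median of the 7 was 0.04. Rpl7l1 (0.07), Rpl22l1 (0.04), Rps4y2 (0.16), Rpl39l (-0.05), Rpl3l (-0.09) and Rpl10l (-0.22) did not pass. Rpl10l and Rpl39l are known from the testis and Rpl3l from striated muscle.

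The 2 subunits differed little in this comparison. The counts here, and those of the channel, the P stalk and the paralogs, stand against 10.2% of all genes called higher. An unadjusted p under 0.05 was found in 32% of all genes in either direction. In the small subunit 16 of 37 members were higher (median 0.17), and in the large subunit 16 of 49 (median 0.15). None of the 9 proteins at the peptide exit tunnel passed in limma, with 5 of them at an unadjusted p under 0.05 and values from 0.02 for Rpl31 to 0.19 for Rpl17. Of the 6 proteins of the 5S particle and other binders of MDM2, the ubiquitin ligase of p53, Rpl11 was higher (0.22, limma adjusted p 0.0301), and its partner Rpl5 differed by 0.02 (limma adjusted p 0.825). Among the 20 measured genes of Diamond-Blackfan anaemia, an inherited failure of red cell production, 7 were higher, among them Rps19 (0.20, limma adjusted p 0.0305) and Rps20 (0.30, limma adjusted p 0.0117).

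Rps6, the substrate of the S6 kinases, did not pass (0.18, limma adjusted p 0.0596). Its Sham values ran from 13.7 through 13.87 to 13.92 and its LPS values were 14.09, 14.04, 13.99, 14.12 and 13.91, so that 1 LPS library lay within the Sham range. The lowest differences were those of Rpl10l (-0.22), Rps27a (-0.17, limma adjusted p 0.153) and Rpl30l2 (-0.16, limma adjusted p 0.201), none of which passed. Rps27a, which is made as a fusion with ubiquitin, ranged in Sham from 7.36 through 7.74 to 7.81, and its LPS values of 7.53, 7.56, 7.35, 7.48 and 7.5 overlapped with them.

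**Figure D2:**
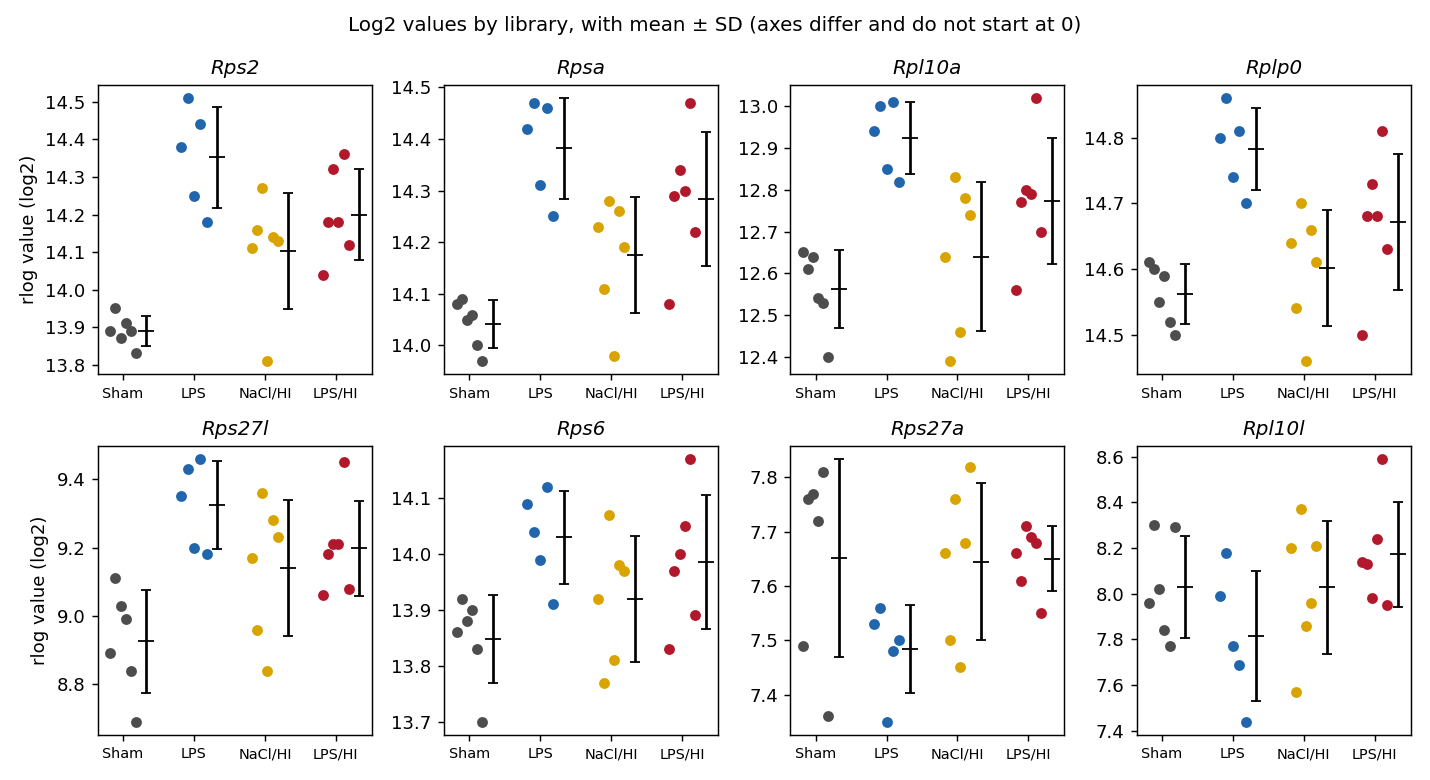
Points are the rlog values (log2) of single libraries in the 4 groups for 8 members, beside the mean and SD of each group; the axes differ and do not start at 0. For Rps2, Rpsa, Rpl10a, Rplp0 and Rps27l all 5 LPS points lie above the 6 Sham points, while Rps6, Rps27a and Rpl10l overlap.

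The difference was also set against the pyrimidine run at the start site, as a description. The 34 members with a run had a median difference of 0.17 between LPS and Sham, with 10 called, and the 30 members without one a median of 0.14, with 12 called. A run that ends before the annotated start base, as in the windows of Rpsa and Rplp2, counted as none. The division thus depends on the annotated start and cannot decide whether the run matters. Rps2 (20 bases) and Rpl10a (11 bases) have a run, and Rpsa and Rps27l have none that covers the start base.

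The labels give no batch. Library names run on from 1 to 23 and pass through the 4 groups in order, from Sham to LPS/HI, and then again from name 13, so the libraries were also divided here, by assumption, into names 1 to 12 and names 13 to 23. The median difference between LPS and Sham was 0.13 in names 1 to 12 and 0.18 in names 13 to 23. Rps2 differed by 0.48 and 0.43, Rpsa by 0.33 and 0.35, and Rpl10a by 0.30 and 0.43. The count of 32 depended on single libraries, and was 16 without LPS 2, 16 without LPS 4 and 18, of which 1 was lower, without Sham 6. In these fits 11.8%, 12.3% and 14.3% of all genes were called in either direction, against 18.6%, 18.6% and 20.9% of the members. The calls of Rps2, Rpsa, Rpl10a, Rplp0 and Rps27l were kept in each of the 23 fits that leave out 1 library, while that of Rpl6 was kept in 11 and that of Rpl27 in 7.

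The second comparison concerned HI without LPS. No member passed in limma between NaCl/HI and Sham, against 0.00985% of all genes called higher (2 genes) and 0% called lower. At an unadjusted p under 0.05 there were 10 members, against 14.8% of all genes. The exact Wilcoxon rank-sum test called 0 of all 20301 genes and so says nothing about the members. The median difference was 0.06 (all genes -0.01), and the difference was above 0 in 68 members, against 46.4% of all genes. Under the assumed division, the median was 0.03 in names 1 to 12, with 52 members above 0, and 0.09 in names 13 to 23, with 82 above 0. The largest were Rps27l (0.22, 95% interval 0.03 to 0.41, limma adjusted p 0.279), Rps10 (0.22, limma adjusted p 0.241) and Rps2 (0.21, limma adjusted p 0.202).

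For Rps2 the NaCl/HI values were 13.81 at the lowest, 14.14 at the median and 14.27 at the highest. The lowest, NaCl/HI 4, was below every Sham library, and the other 5 were above all of them. The lowest differences were those of Rps12l4 (-0.13), Rpl30l2 (-0.11) and Rpl21 (-0.08), which did not pass. All NaCl/HI values were above all Sham values in 1 member, against 0.522% of all genes, and all were below in 0, against 0.493%. That member was Rpl31l4 (named after its values were seen), with a difference of 0.10 (limma adjusted p 0.237). Without NaCl/HI 4 the median was 0.09 and 2 members were called (2.33%, against 2.74% of all genes in either direction), and without NaCl/HI 3 the median was 0.03.

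The third comparison was that of the combined insult with Sham. In LPS/HI 7 of 86 members were higher and 0 were lower, against 5.3% of all genes called higher and 3.48% called lower. With 8.14% of the members called, this share was near the background. The differences of the members had a median of 0.13 (all genes -0.002) and were above 0 in 78 members, against 48.9% of all genes. An unadjusted p under 0.05 was found in 40 members in limma, against 26.8% of all genes. Since the members moved together from library to library, these counts, here and in the other comparisons, are not counts of independent results. All LPS/HI values were above all Sham values in 6 members, against 3.85% of all genes, and below in 0, against 2.52%.

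Rps2 led again, with LPS/HI values of 14.04 at the lowest, 14.18 at the median and 14.36 at the highest, all above the Sham libraries. The difference was 0.31 (SE 0.072, limma adjusted p 0.0127). Rpsa ranged from 14.08 through 14.3 to 14.47, with the lowest library inside the Sham range and a difference of 0.24 (SE 0.063, limma adjusted p 0.0233). The other called members were Rps12l2 (0.29), Rpl30 (0.23), Rps18l1 (0.22), Rps12l3 (0.21) and Rpl31l4 (0.14). Of these, Rps12l2, Rpl30 and Rps12l3 belong to the lowest 25% of genes, with values from 1.8 to 3.57 in all libraries, and Rps18l1 and Rpl31l4 are rows of near copies. Leaving out each of the 23 libraries in turn, the call was kept in all 23 fits for Rps2, in 20 for Rpsa, 21 for Rps12l3, 18 for Rpl30, 19 for Rpl31l4, 11 for Rps18l1 and 8 for Rps12l2.

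The LPS/HI result depended on single libraries too. Without LPS/HI 1, in which most members were lowest, 25 members (29.1%) were called, all higher, where 7.44% of all genes were called higher. Without LPS/HI 5, in which most members were highest, 2 (2.33%) were called, where 2.49% of all genes were higher. Without LPS/HI 3 the count was 1 (1.16%, against 3.17% of all genes), and without NaCl/HI 4, which enters the shared estimate of the spread, it was 12 (14%, against 6.33%). Under the assumed division by library name, the median difference was 0.05 in names 1 to 12 and 0.20 in names 13 to 23, and Rps2 differed by 0.28 and 0.34. Rpsa differed by 0.16 and 0.32, Rps18l1 by 0.15 and 0.29, and Rpl30 by 0.31 and 0.15. Rps12l3 differed by 0.34 and 0.08, Rps12l2 by 0.38 and 0.20, and Rpl31l4 by 0.12 and 0.16. The median of all libraries, 0.13, was 0.08 without LPS/HI 5.

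**Figure D3:**
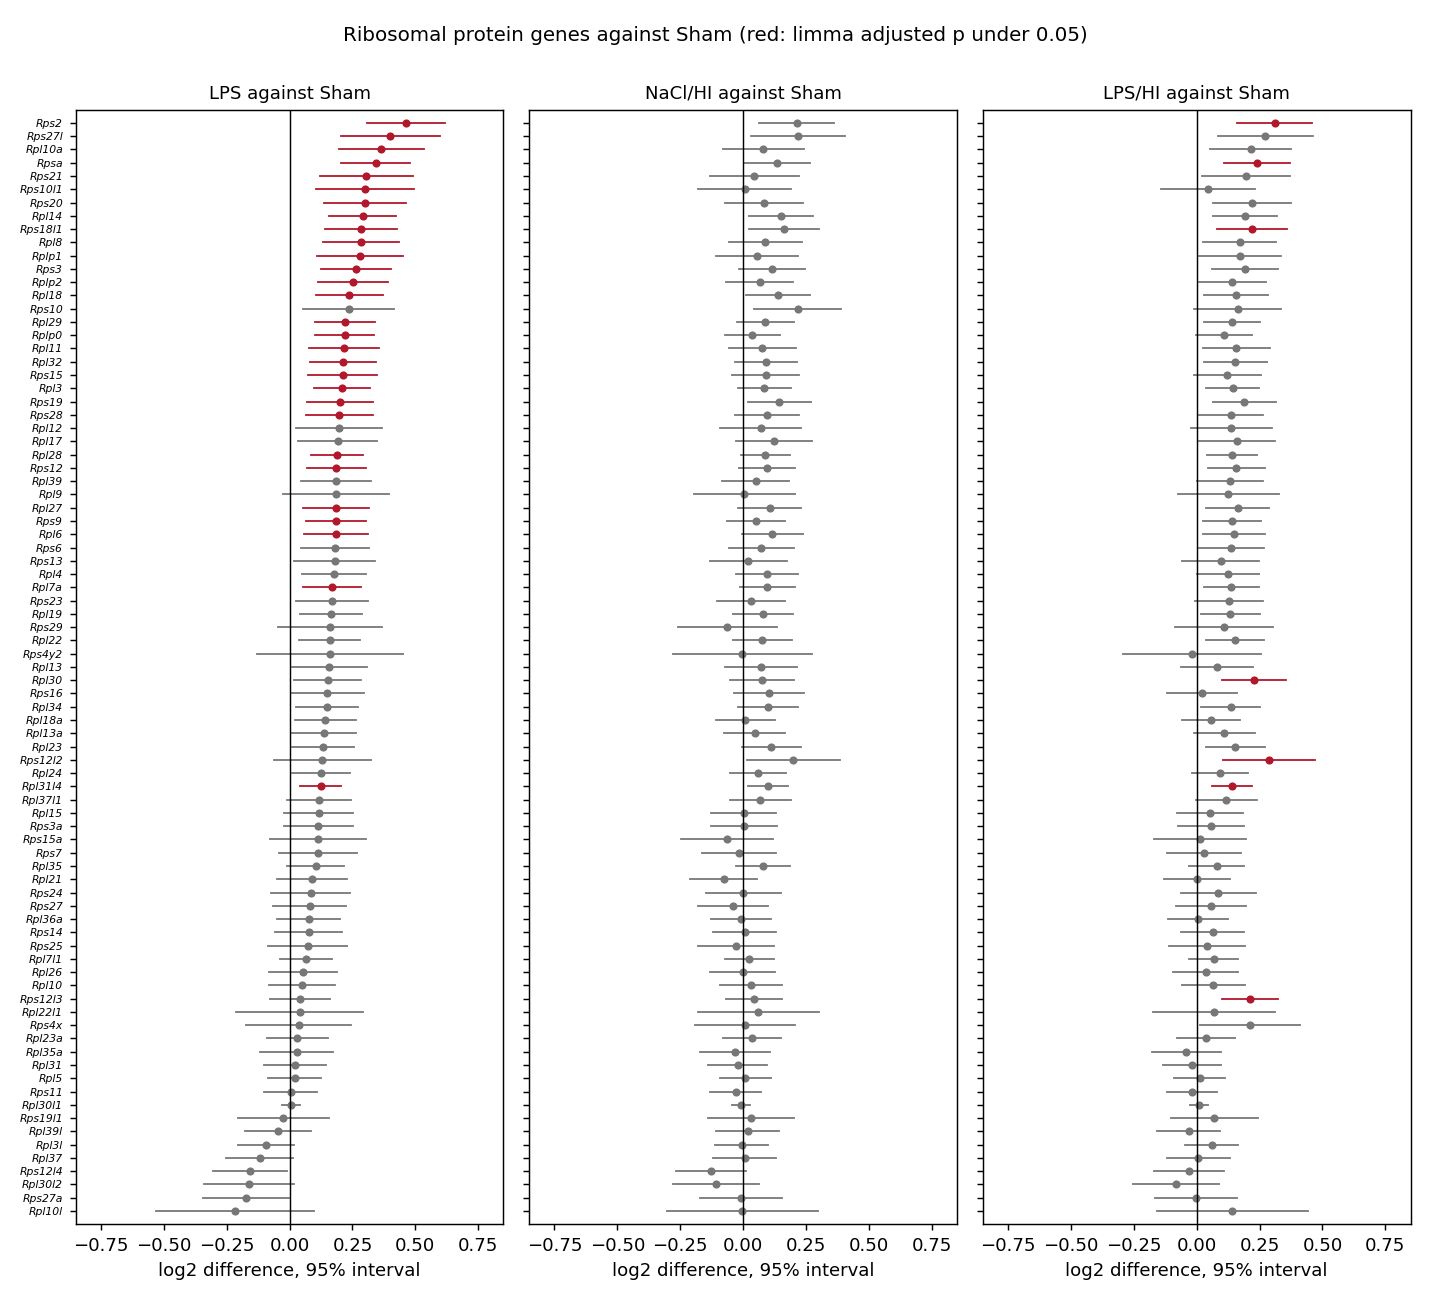
Log2 differences from Sham with 95% intervals for 83 members in LPS, NaCl/HI and LPS/HI, ordered by the difference in LPS; red marks a limma adjusted p under 0.05. There are 29 red points for LPS, none for NaCl/HI and 7 for LPS/HI, and in each panel most points lie right of 0.

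Set side by side, the 3 comparisons share their Sham samples, so their values are not independent. Rps2 was at a mean of 13.89 ± 0.041 (SD, n = 6) in Sham, 14.1 ± 0.154 (n = 6) in NaCl/HI, 14.2 ± 0.12 (n = 6) in LPS/HI and 14.35 ± 0.138 (n = 5) in LPS. The means of Rpsa, in the same order of groups, were 14.04 ± 0.049, 14.18 ± 0.113, 14.28 ± 0.129 and 14.38 ± 0.097. Those of Rplp0 were 14.56 ± 0.046, 14.6 ± 0.088, 14.67 ± 0.106 and 14.78 ± 0.06. For these 3 genes the order of the means was the same, and none of the 3 pairs of neighbours in this order passed in limma.

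Adding HI to LPS did not shift any member past the threshold. Between LPS/HI and LPS 0 members were called, against 1.22% of all genes called higher and 0.719% called lower. In limma 4 members had an unadjusted p under 0.05, against 15.5% of all genes, and the exact Wilcoxon test again called 0 of all 20301 genes. The median difference was -0.05, and the difference was above 0 in 20 members, against 51% of all genes. Under the assumed division the median was -0.10 in names 1 to 12 and 0.01 in names 13 to 23. It was -0.02 without LPS/HI 1 and -0.08 without LPS/HI 5. Rpl10l, at 0.36 (limma adjusted p 0.239), and Rps10l1, at -0.25 (limma adjusted p 0.17), were the extremes. Rps2 differed by -0.15 (95% interval -0.31 to 0.00, limma adjusted p 0.338).

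Adding LPS to HI likewise called 0 members between LPS/HI and NaCl/HI, against 0.153% of all genes called higher and 0.0493% called lower. In limma 3 members had an unadjusted p under 0.05, against 10.6% of all genes, and here too the exact Wilcoxon test called 0 of all 20301 genes. The median difference was 0.05, and 80 of 86 members were above 0, against 52.5% of all genes. Under the assumed division the median was 0.01 in names 1 to 12, with 50 members above 0, and 0.09 in names 13 to 23, with 79 above 0. Without LPS/HI 5 the median was 0.02, and without LPS/HI 1 it was 0.08. The largest difference was that of Rps4x (0.20, limma adjusted p 0.453) and the lowest that of Rps16 (-0.08, limma adjusted p 0.708). Rps2 differed by 0.10 (95% interval -0.05 to 0.25).

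Between LPS and NaCl/HI 3 members were higher and 0 lower, against 5.32% of all genes called higher and 3.66% called lower. At an unadjusted p under 0.05 there were 19, against 23% of all genes, and the median difference was 0.09. The 3 were Rpl10a (0.28, limma adjusted p 0.0324), Rps2 (0.25, limma adjusted p 0.0412) and Rplp0 (0.18, limma adjusted p 0.0449). Rplp0 values in NaCl/HI were 14.46 at the lowest, 14.63 at the median and 14.7 at the highest, and all LPS values were higher. For Rpl10a and Rps2 the groups overlapped. Of 34 alternative fits, the call was kept in 24 for Rpl10a, in 21 for Rps2 and in 10 for Rplp0, where it held in 4 of the 23 that leave out 1 library. Without LPS 1, LPS 2, LPS 4, or NaCl/HI 1, 2 or 4, the count was 0, while between 3.24% and 4.6% of all genes were called higher.

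The interaction of LPS with HI was the difference between LPS/HI and NaCl/HI minus that between LPS and Sham. It was called in 0 members, against 0.365% of all genes above 0 and 0.719% below 0. In limma 12 members had an unadjusted p under 0.05, against 15.1% of all genes. Its median was -0.10, and 15 members were above 0. Rps2 was the lowest at -0.37 (SE 0.104, limma adjusted p 0.0898), followed by Rps27l (-0.35, limma adjusted p 0.208). The larger difference by LPS in sham-operated than in HI pups was thus not past the threshold for any member. The reference was saline in HI pups and no listed injection in sham-operated pups, so the interaction also holds the effect of an injection.

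**Figure D4:**
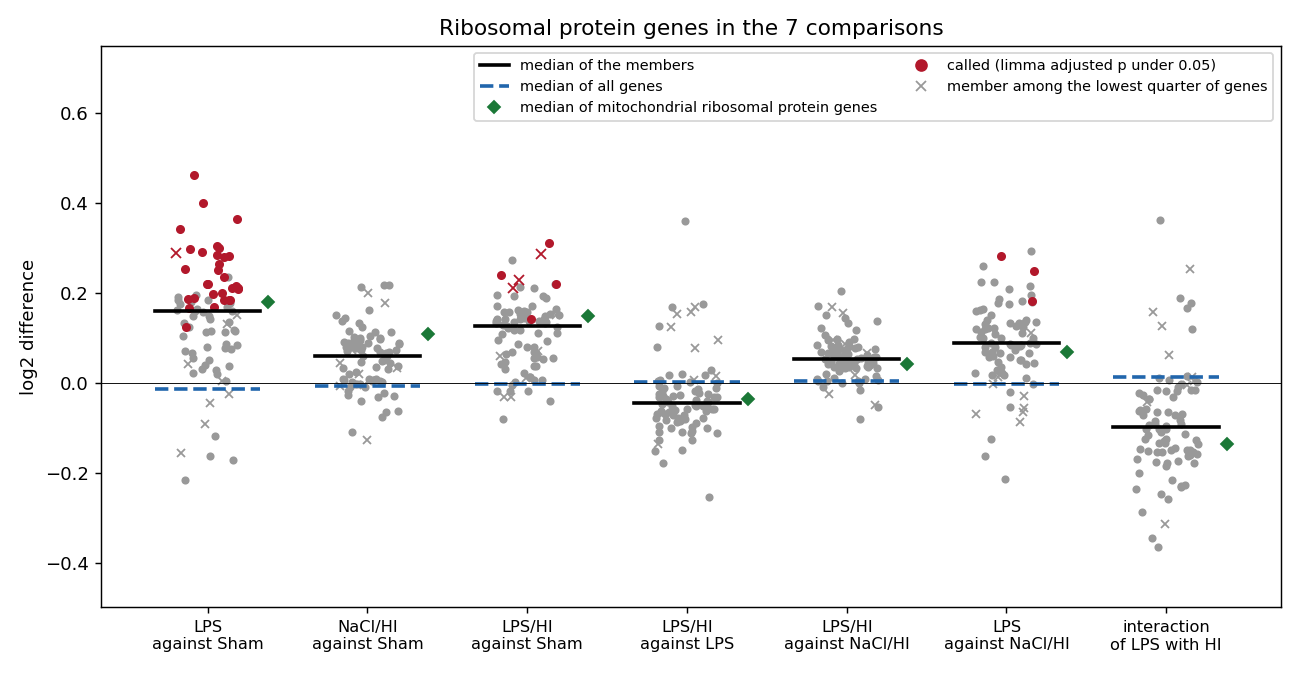
Log2 differences of the 86 members (points, crosses for members among the lowest 25% of genes) in the 7 comparisons, with their median (black), the median of all genes (dashed blue) and that of mitochondrial ribosomal proteins (green diamond); red marks members called by limma. The members' median is highest for LPS against Sham (0.16) and lowest for the interaction (-0.10).

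Ribosomal proteins that the symbol rule leaves out included further genes that were higher in LPS. Rpl36al was higher by 0.21 (limma adjusted p 0.00561) and Rack1, the scaffold on the small subunit, by 0.18 (limma adjusted p 0.0223), while Fau did not pass (0.12). The 73 mitochondrial ribosomal proteins, which form a separate ribosome, had 36 higher (49.3%, against 10.2% of all genes) and 0 lower with a median of 0.18, led by Mrps12 (0.54) and Mrpl54 (0.42). In LPS/HI against Sham 17 of these 73 were higher (23.3%, against 5.3% of all genes). The 60 rows labelled as copies, a list added after the values were seen, had 3 higher (5%, against 10.2% of all genes) and 4 lower with a median of 0.01.

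Other parts of the translation machinery had calls in both directions in LPS against Sham, where 10.2% of all genes were called higher and 7.56% lower. Of 34 initiation factors 9 were higher, such as Eif3i (0.28) and Eif2b2 (0.24), and 2 lower, Eif1 (-0.31) and Eif4a2 (-0.24). Of 12 elongation factors and other transcripts with a pyrimidine tract, 5 were higher, led by Eif5a (0.33), and 1 was lower, Tpt1 (-0.23). Of 59 ribosome assembly factors 3 were higher, among them Nhp2 (0.26) and Nop10 (0.23), and 6 lower, among them Gnl3 (-0.28). That is 5.08% called higher, below the 10.2% of all genes, and 33.9% of these factors had a difference above 0, against 44.3% of all genes. None of 14 RNA polymerase I genes passed in limma (3 at an unadjusted p under 0.05, median -0.11). Of 21 genes of mTORC1 signalling and S6 kinases 5 were higher, among them Eif4ebp1 (0.26), and 1 lower, Larp4 (-0.14).

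For stress pathways tied to ribosomes, the counts were again small and are read against the 10.2% and 7.56% of all genes called higher and lower. Of 12 ribosome quality control genes 2 were higher, Edf1 (0.18) and Ascc1 (0.13). Of 15 genes of the integrated stress response 2 were higher, Phgdh (0.55) and Atf5 (0.39), and Atf4 was lower (-0.21). Of 9 targets of p53 none was higher, and Eda2r (-0.33) and Zmat3 (-0.26) were lower.

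Marker lists of cell types had called genes in the same comparisons. The counts from Sham to LPS stand against 10.2% of all genes called higher and 7.56% lower, and those from Sham to LPS/HI against 5.3% and 3.48%. From Sham to LPS, 6 of 13 microglia markers were lower and 1 higher, and the mean of the list per library ranged from 12.71 to 12.94 in Sham and from 12.58 to 12.74 in LPS. Of 7 neuron markers 3 were lower, with means from 6.66 to 6.93 in Sham and from 6.48 to 6.74 in LPS. Of 6 astrocyte markers 2 were higher, with means from 10.6 to 11.03 and from 10.84 to 11.2. Of 10 neutrophil markers 1 was higher and 2 were lower, with differences from -1.07 to 0.26 and means from 6.21 to 6.6 in Sham and from 5.98 to 6.4 in LPS. Of 7 monocyte markers 1 was higher, by 1.17, and the median of the list was -0.18. Of 6 endothelial markers 1 was higher and 1 lower, with differences from -0.20 to 0.15. None of the erythroid, oligodendrocyte or T and B cell markers passed in limma, with 3 of 6, 1 of 7 and 2 of 6 at an unadjusted p under 0.05. From Sham to LPS/HI 4 of 10 neutrophil markers were higher, with means from 6.21 to 6.6 and from 6.29 to 7.16. Differences ran from -0.58 to 1.18, and the 4 were S100a9 (1.18), S100a8 (1.11), Mmp8 (1.04) and Retnlg (0.72), named after their values were seen. Of the granule genes on the list, Elane stayed between 0.25 and 0.44 and Mpo between 2.4 and 2.96 in all libraries. Ltf lay between 4.59 and 4.97, while Ngp (5.72 to 7.56) and Camp (5.08 to 7.09) were higher and varied more. In the same comparison 2 of 6 endothelial markers were higher, with means from 11.67 to 11.84 in Sham and from 11.77 to 12.05 in LPS/HI, highest in LPS/HI 5, where most members were highest too. Of the 6 astrocyte markers 1 was higher, with means from 10.97 to 11.24 in LPS/HI, and of the 13 microglia markers 2 were lower, with means from 12.65 to 12.84. Of the 7 neuron markers 2 were lower, with means from 6.54 to 6.76, 1 of the 7 monocyte markers was higher, and 1 of the 6 T and B cell markers was lower. Between LPS and NaCl/HI 5.32% of all genes were called higher and 3.66% lower. There 4 of 13 microglia markers were lower and 1 higher, 2 of 6 astrocyte markers were higher and 1 of 7 neuron markers was lower. Of 10 neutrophil markers 1 was lower, and the monocyte and endothelial lists each had 1 higher and 1 lower. The part of these cells in the values of the ribosomal protein genes was not tested.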

How the data were processed

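RNA-seq values of 23 libraries were used. The authors quantified reads with kallisto 0.48.0 against mRatBN7.2, dropped genes with hardly any counts, added up protein-coding genes of one symbol, applied the rlog of DESeq2 and took out 3 surrogate variables, and the deposited values are the resulting log2 values (-1.35 to 23.4). Depth is unknown, since counts were not used here. Groups came from the sample titles, which number biological replicates.

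All 7 comparisons were taken from 1 limma 3.58.1 fit (R 4.3.3) of all libraries with a variance trend. Of 19 residual degrees of freedom 16 were used, because the libraries spanned 16 dimensions after the group means were removed. Spread within groups had thus been removed before deposit, so p values, those of the exact Wilcoxon test included, may still be too low. Benjamini-Hochberg adjustment ran over all 20301 genes, two-sided. The fit was tested on simulated data, with noise independent between genes and random directions removed. The members are correlated, so that test does not cover their calls as a set. Tables and figures used Python 3.11.15 with pandas 2.3.3, numpy 2.4.6 and matplotlib 3.10.9.

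The members, gene lists and tests were chosen with earlier results of these data known. Genes named were, per comparison, up to 5 called members in each direction (or the 3 most extreme where fewer than 3 were called), the P stalk, the paralogs, Rps6, Rps27a and Rack1, and up to 3 called genes a direction from each other list; further members were named for their list or after their values were seen. Rpl7, Rpl27a, Rpl36, Rpl37a, Rpl38, Rpl41, Rps18 and Rps26 were not analysed here. Results of some single genes are left out by name, also from the figures, but remain in the counts and medians. Alternatives covered scaling, degrees of freedom, variance model, weights, blocks, filters, the exact Wilcoxon test and leaving out each library.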

Additional observations from a re-analysis of the deposited data

Results flagged for a closer look

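For 34 quantities, the named members and the mean of the members, the highest or lowest library of each group was compared with its nearest neighbour by Dixon's test, and 7 of 136 groups passed, where chance gives about 1 in 20. In NaCl/HI 4, Rps2 was at 13.81 (the others 14.11 to 14.27), Rps10 at 11.04 (11.4 to 11.58) and Rps4x at 7.89 (8.33 to 8.45). In Sham 6, Rpl35a was at 11.78 (11.95 to 12.01) and Rpl37 at 7.66 (7.81 to 7.88). In LPS 5, Rpl37 was at 7.55 (7.71 to 7.75), and in LPS 4, Rpl21 was at 12.56 (12.33 to 12.39). Sham 6 and LPS 5 were also the libraries in which most members were lowest within their groups.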

How the results depend on the processing

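The median differences of the members kept their sign in all 7 comparisons under other scalings, without the lowest 25% of genes and without any 1 library, but several moved by over 1.5 times without 1 library. They ran from -0.0815 to -0.0158 for LPS/HI against LPS (also -0.0273 without LPS 4, -0.0732 without LPS 5 and -0.0305 without LPS/HI 6), from 0.0189 to 0.0845 for LPS/HI against NaCl/HI (also 0.0293, 0.0827 and 0.0281 without NaCl/HI 2, 3 and 4), from 0.0274 to 0.0932 for NaCl/HI against Sham, from 0.0849 to 0.154 for LPS/HI against Sham, and from 0.135 to 0.189 for LPS against Sham. Counts of called members moved too. For LPS against Sham the count of 32 was 17 with a replicate block (all genes 7.15% higher) and between 16 and 40 when 1 library was left out. It was 21 without LPS 1 (24.4%, against 13.5% of all genes in either direction) and 20 without Sham 5 (23.3%, against 14.3%). The exact Wilcoxon test called 40, of which 1 was lower (all genes 10.4% higher, 8.7% lower). For LPS/HI against Sham the count of 7 became 4 with each library centred on its median (4.65%, all genes 4.18% higher) and 19 with the full residual degrees of freedom (all genes 8.45% higher). It was 3 with only the groups compared (3.49%, all genes 3.46% higher) and 2 with the replicate block (2.33%, all genes 2.37% higher). Array weights, whose estimation stopped before it converged, gave 50 (all genes 22.2% higher, 20% lower). Without 1 library the count ran from 1 to 25. It was 3 (3.49%) without LPS/HI 2, Sham 1 or Sham 6, where 2.74%, 3.41% and 3.12% of all genes were higher. Without Sham 5 it was 4 (4.65%, all genes 3.48% higher). For NaCl/HI against Sham the count was 1 with array weights (1.16%, against 3.21% of all genes in either direction) and 0 to 2 without 1 library. Array weights gave 9 for LPS/HI against LPS (3 higher, 6 lower), 9 for the interaction and 3 for LPS/HI against NaCl/HI, where they called 20%, 10.9% and 14.4% of all genes in either direction. The interaction count of 0 reached 1 (1.16%) with full degrees of freedom and without NaCl/HI 4, against 3.28% and 2.43% of all genes in either direction. It was 0 to 1 without any 1 library. For LPS against NaCl/HI the count of 3 was 5 with median centring, 1 with quantile normalization, 8 with full degrees of freedom, 0 with only the groups compared, 0 with the replicate block, 5 without the lowest 25% of genes, 5 with array weights, 0 by the exact Wilcoxon test, which called 0 of all 20301 genes there, and 0 to 7 without 1 library (7 without LPS/HI 1, 6 without LPS/HI 5 or NaCl/HI 3, 1 without LPS/HI 2 or Sham 4). Of all genes, 8.98% were called in either direction in that comparison, against 9.5%, 8.64%, 13.3%, 2.43%, 5.33%, 13% and 11.4% in the first 7 of these settings. Without LPS/HI 1, LPS/HI 5, NaCl/HI 3, LPS/HI 2 and Sham 4 it was 9.89%, 8.87%, 7.97%, 7.55% and 8.1%. The cause was not tested. The replicate numbers do not pair the libraries: 9 of 33 pairs with the same number had a correlation of deviations over 0.1 (-0.475 to 0.47), and 5 of 23 libraries correlated best with their own number. Depth, which sets the precision of the weak members, is unknown.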
